A study of Mus musculus with 12 samples.

Results

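The 10 genes described here belong to the pathway that carries signals of interleukin-6 (IL-6) and related ligands into the liver cell and switches them off. They are the receptor genes Il6ra, Il6st, Lifr and Osmr, the transducer Stat3, the feedback inhibitors Socs1 and Socs3, and the response genes Cebpb, Cebpd and Pim1. They were chosen by name, with earlier results of these data known. Each symbol matched 1 of the 46078 Ensembl genes in the deposited count table. Of the 10 genes, 9 passed the filter on low counts and were among the 13054 genes tested. Socs1, with 2 to 11 counts in each library, did not. Liver RNA was sequenced from 12 C57BL/6 mice (C57BL/6J in the study's methods) with diet-induced obesity (DIO), aged 21 weeks. After a high fat diet, 4 mice had vertical sleeve gastrectomy (VSG), in which most of the stomach is removed. A further 4 had sham surgery and then restricted food to match the weight of the VSG mice (Sham-WM), and 4 had sham surgery and a return to unrestricted diet (Sham-Ad lib). The mice were male, every group had been operated on, and all were culled once weight had stabilised, after a short period without food. The study returned the mice to the high fat diet after surgery. VSG against Sham-Ad lib covers sleeve gastrectomy together with the weight loss that came with it. Sham-WM against Sham-Ad lib covers a similar loss of weight by food restriction, and VSG against Sham-WM compares these groups at a similar weight. VSG and Sham-WM were each set against the same 4 Sham-Ad lib mice, so these comparisons share their control, and VSG was set against Sham-WM.

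IL-6 binds its receptor chain, encoded by Il6ra, and the pair engages gp130, the shared signalling chain encoded by Il6st. Lifr and Osmr encode the chains through which leukaemia inhibitory factor and oncostatin M engage gp130. Janus kinases bound to gp130 phosphorylate STAT3, which moves to the nucleus and induces its own inhibitor Socs3, the kinase gene Pim1, the transcription factor genes Cebpb and Cebpd and, in hepatocytes, the acute phase proteins. SOCS3 binds gp130 and blocks the kinases. In liver this pathway is known for the acute phase response and for its part in regeneration. STAT3 is switched on by phosphorylation, which mRNA levels do not measure.

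Socs3 lies on chromosome 11 of mm10, from 117966079 to 117970047 on the minus strand. Its promoter is shown because it was the only member promoter that held the letters of a STAT site, TTCNNNGAA. This motif reads the same on both strands, and it was sought in 11 windows from 250 bases before to 50 bases after the RefSeq start, which covered 9 of the 10 members (Cebpd was not covered). The Socs3 window (RefSeq, GRCm38.p6, chr11:117969317-117969616, minus strand) is printed 5′ to 3′ with the motif in capitals, 154 to 146 bases before the start.
Socs3: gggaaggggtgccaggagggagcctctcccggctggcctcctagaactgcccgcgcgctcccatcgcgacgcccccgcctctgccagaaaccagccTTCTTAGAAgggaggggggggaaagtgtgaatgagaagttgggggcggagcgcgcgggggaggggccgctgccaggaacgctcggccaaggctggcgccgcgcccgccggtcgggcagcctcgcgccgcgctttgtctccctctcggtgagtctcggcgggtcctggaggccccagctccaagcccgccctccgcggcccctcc
The same motif occurred in 8.3% of 32851 promoter windows of this length. The C/EBP motif TTGCNNAA, sought on both strands, was in 0 of the 11 member windows and in 10.8% of all windows. A match describes the sequence only, and binding was not measured.

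The libraries held 15122520 to 19384076 counted reads each, and levels are given as TMM-normalised CPM, in which the reads of a gene are scaled to the size of the library. Markers of hepatocytes, the main cell type of liver, summed to between 75964 and 117580 CPM in VSG mice. The sums were 118642 to 149429 CPM in Sham-WM and 101282 to 120465 CPM in Sham-Ad lib mice. Alb made up most of each sum, with means of 64000 CPM in VSG, 106082 CPM in Sham-WM and 84801 CPM in Sham-Ad lib mice. The sums therefore describe mainly this 1 gene. VSG mouse 18F had the 117580 CPM, and 1F, 8F and 11F lay at 78322 CPM or below. Markers of neutrophils summed to between 30.6 and 968 CPM in VSG, 1.52 and 2.55 CPM in Sham-WM, and 0.649 and 15.5 CPM in Sham-Ad lib mice. Those of Kupffer cells, the resident macrophages of liver, summed to between 389 and 1118 CPM in VSG, 104.2 and 183 CPM in Sham-WM, and 113.5 and 376 CPM in Sham-Ad lib mice. In both marker sums, mouse 4F was the highest of the Sham-Ad lib mice, at 15.5 and 376 CPM. Lep, 1 of 3 adipocyte markers, and Cpa1, 1 of 4 markers of exocrine pancreas, were at 0 in every library. Cela1 of the pancreas list was not, with 195 to 493 counts in each library. In whole liver, a change in how many cells of a type are present and a change in RNA per cell cannot be told apart.

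Set against exon length, the 10 genes spanned a wide range of levels. In Sham-Ad lib mice Cebpb had the highest mean level, 56.0 ± 19.2 CPM per kb (SD, n = 4), and its lowest mouse lay above every mouse for the next gene. Lifr (21.5 ± 7.93), Il6st (18.3 ± 1.23), Stat3 (14.4 ± 5.63) and Il6ra (10.1 ± 0.832 CPM per kb) followed, each overlapping its neighbour in that order. Pim1 (5.001 ± 1.79), Socs3 (3.88 ± 4.199) and Cebpd (2.28 ± 1.39 CPM per kb) formed a lower set, again with overlap between neighbours. Osmr was lower still at 0.368 ± 0.261 CPM per kb, and Socs1 was the lowest at 0.0905 ± 0.0332 CPM per kb. Cebpb was first, and Osmr and Socs1 were last, in the Sham-WM and VSG groups too.

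**Figure D1:**
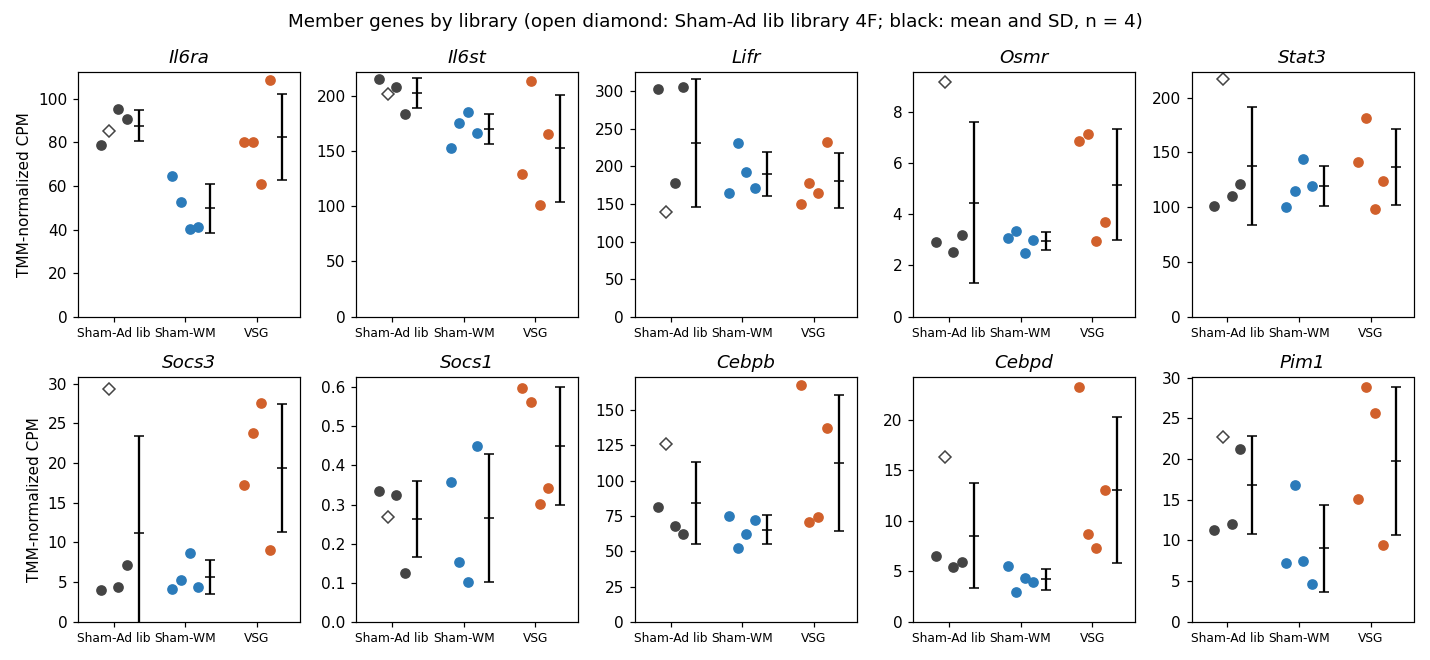
Level of each of the 10 genes in each library, in TMM-normalised CPM (vertical axes start at 0, with a separate scale for each gene), for Sham-Ad lib, Sham-WM and VSG mice; points are mice, black bars are the mean and SD of 4 mice (the Socs3 bar of Sham-Ad lib is clipped at 0), and the open diamond is Sham-Ad lib mouse 4F. Il6ra is lower in all 4 Sham-WM mice than in every Sham-Ad lib mouse, and Socs3 and Cebpd are higher in all 4 VSG mice than in every Sham-WM mouse.

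The receptor gene Il6ra fell in Sham-WM livers. It measured 78.9, 85.4, 95.6 and 90.8 CPM in Sham-Ad lib mice 3F, 4F, 6F and 10F, 64.4, 52.8, 40.3 and 41.3 CPM in Sham-WM mice 2F, 9F, 15F and 16F, and 80.3, 80.1, 61.1 and 108.9 CPM in VSG mice 1F, 8F, 11F and 18F. Every Sham-WM mouse was below every Sham-Ad lib mouse, while VSG and Sham-Ad lib mice overlapped, and the lowest VSG mouse (11F) overlapped the highest Sham-WM mouse (2F). In Sham-WM against Sham-Ad lib the ratio of means was 0.567 and the log2 fold change -0.82 ± 0.18 (SE), with an adjusted p of 0.0163 (edgeR's quasi-likelihood test, Benjamini-Hochberg over 13054 genes). A two-sided exact permutation test gave p = 0.0286, the smallest that 4 against 4 mice can give. The call was lost without Sham-WM mouse 15F (adjusted p = 0.0612) or 16F (0.0607). Il6ra was also 1.66 times as high in VSG as in Sham-WM mice (log2 fold change 0.73 ± 0.18, adjusted p = 0.0107), and this call held when any 1 library was left out, but the exact permutation test gave p = 0.0571. In VSG against Sham-Ad lib the log2 fold change was -0.09 ± 0.18 (adjusted p = 0.797). Il6ra spans 89864059 to 89913196 on the minus strand of chromosome 3 (mm10), and the opposite-strand gene that overlaps it, Gm42809, had at most 11 counts in a library.

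The other receptor chains did not pass the threshold in any comparison. Il6st, which encodes gp130, measured 216, 202, 208 and 184 CPM in Sham-Ad lib mice, 153, 175, 185 and 167 CPM in Sham-WM mice, and 129, 214, 102 and 165 CPM in VSG mice. The 4 Sham-Ad lib mice lay close together, whereas the VSG mice spread over a 2.11-fold range. Its log2 fold change in VSG against Sham-Ad lib was -0.41 ± 0.18, with an unadjusted p of 0.0411 and an adjusted p of 0.190. In the other comparisons it was -0.25 ± 0.18 (Sham-WM against Sham-Ad lib, adjusted p = 0.464) and -0.16 ± 0.18 (VSG against Sham-WM, adjusted p = 0.545). Lifr measured 303, 139, 179 and 306 CPM in Sham-Ad lib mice, and the 8 mice of the other groups lay between 149 and 233 CPM. Its log2 fold changes were -0.36 ± 0.24 in VSG and -0.29 ± 0.24 in Sham-WM against Sham-Ad lib, and -0.07 ± 0.24 in VSG against Sham-WM, with adjusted p-values of 0.366, 0.535 and 0.847.

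Osmr, the chain for oncostatin M, was expressed at a low level. It measured 2.90, 9.18, 2.54 and 3.20 CPM in Sham-Ad lib mice, 3.06, 3.33, 2.50 and 2.98 CPM in Sham-WM mice, and 6.87, 7.15, 2.94 and 3.70 CPM in VSG mice. High values were seen in VSG mice 1F and 8F and in Sham-Ad lib mouse 4F, and the other 9 mice lay at 3.70 CPM or below. The log2 fold change in VSG against Sham-WM was 0.81 ± 0.40 (adjusted p = 0.151).

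Stat3, the transducer, did not pass the threshold in any comparison. It measured 101, 217, 110 and 121 CPM in Sham-Ad lib mice, 100.1, 114.2, 144 and 119 CPM in Sham-WM mice, and 141, 182, 98.7 and 124 CPM in VSG mice. The groups overlapped throughout, and the single highest mouse was 4F of the Sham-Ad lib group. Its log2 fold change was -0.01 ± 0.24 for VSG and -0.20 ± 0.24 for Sham-WM set against Sham-Ad lib, and 0.19 ± 0.24 for VSG set against Sham-WM, with adjusted p-values of 0.985, 0.688 and 0.572.

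Socs3, the feedback inhibitor that STAT3 induces, was higher in VSG than in Sham-WM livers. It measured 17.3, 23.7, 27.5 and 9.04 CPM in VSG mice 1F, 8F, 11F and 18F, 4.08, 5.32, 8.72 and 4.39 CPM in Sham-WM mice, and 3.96, 29.3, 4.44 and 7.15 CPM in Sham-Ad lib mice. All 4 VSG mice lay above all 4 Sham-WM mice, by a narrow margin between 18F and 15F, and Sham-Ad lib mouse 4F lay above all of them. In VSG against Sham-WM the means were in the ratio 3.44, the log2 fold change was 1.78 ± 0.58 and the adjusted p was 0.0365, with an exact permutation p of 0.0286. This call was lost without any 1 of VSG mice 1F, 8F or 11F or Sham-WM mice 2F, 9F or 16F, with adjusted p-values between 0.0607 and 0.0935.

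Against Sham-Ad lib, the Socs3 result turned on mouse 4F. With all mice, VSG against Sham-Ad lib had a log2 fold change of 0.78 ± 0.55 (adjusted p = 0.397). Without 4F it was 1.90, with an adjusted p of 0.0127. Of the 12 fits that left out 1 library, this was the only 1 that called Socs3, and without 3F the log2 fold change was 0.50 (adjusted p = 0.654). Mouse 4F was flagged by its Socs3 value itself, so the fit without it is a description only. Sham-WM against Sham-Ad lib had a log2 fold change of -0.995 ± 0.574 (adjusted p = 0.347), which became 0.13 without 4F. Socs1, the second inhibitor, had 6, 5, 6 and 2 counts in Sham-Ad lib mice, 7, 3, 2 and 8 counts in Sham-WM mice, and 10, 11, 4 and 6 counts in VSG mice. These counts overlap between the groups, and Socs1 was below the filter of the edgeR test; DESeq2, run without that filter, gave adjusted p-values of 0.488 for VSG and 0.995 for Sham-WM against Sham-Ad lib, and 0.380 for VSG against Sham-WM.

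Among the response genes, Cebpd, which encodes C/EBPδ, was higher in VSG than in Sham-WM livers. It measured 23.2, 8.68, 7.31 and 13.1 CPM in VSG mice, 5.50, 2.97, 4.39 and 3.94 CPM in Sham-WM mice, and 6.53, 16.3, 5.41 and 5.96 CPM in Sham-Ad lib mice. Every VSG mouse was above every Sham-WM mouse, and above every Sham-Ad lib mouse other than 4F. In VSG against Sham-WM the ratio of means was 3.11, the log2 fold change 1.64 ± 0.41 and the adjusted p 0.0125, and the call held when any 1 library was left out. The log2 fold change was 0.61 ± 0.40 in VSG against Sham-Ad lib (adjusted p = 0.358), and 1.13 without 4F (adjusted p = 0.0730). It was -1.03 ± 0.41 in Sham-WM against Sham-Ad lib (adjusted p = 0.162), and -0.50 without 4F. Cebpd lies on the plus strand of chromosome 16 (mm10), from 15887286 to 15891031, and shares 562 exonic bases with the opposite-strand gene Spidr, which averaged 91.8 counts against 152 for Cebpd. Mean Spidr counts were 77.5 among Sham-Ad lib, 107.8 among Sham-WM and 90.3 among VSG mice, and the part of Spidr reads in the Cebpd counts was not tested.

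Cebpb and Pim1 had log2 fold changes above 0 in VSG against Sham-WM without passing the threshold. Cebpb, which encodes C/EBPβ, measured 168, 70.7, 74.2 and 138 CPM in VSG mice, 75.0, 52.1, 62.1 and 71.9 CPM in Sham-WM mice, and 81.3, 126, 67.8 and 62.1 CPM in Sham-Ad lib mice. VSG mice 1F and 18F were the highest of all 12, and 8F and 11F lay within the Sham-WM range. Cebpb shares 312 exonic bases with the opposite-strand gene Tmem189, which averaged 272 counts against 1552 for Cebpb. The log2 fold change in VSG against Sham-WM was 0.79 ± 0.28 (adjusted p = 0.0560). Pim1, a kinase gene, measured 15.1, 28.8, 25.7 and 9.39 CPM in VSG mice, 7.24, 16.8, 7.45 and 4.67 CPM in Sham-WM mice, and 11.3, 22.7, 11.96 and 21.3 CPM in Sham-Ad lib mice. For Pim1 it was VSG mice 8F and 11F that were highest, with Sham-WM mouse 9F above the other VSG mice. The log2 fold change was 1.12 ± 0.41 (adjusted p = 0.0589). DESeq2 called both genes in this comparison (adjusted p = 0.0328 for Cebpb and 0.0268 for Pim1).

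The 4 VSG mice were not ordered alike for these genes. Cebpb and Cebpd were highest in 1F and 18F, whereas Socs3 and Pim1 were highest in 8F and 11F. Neutrophil markers summed to 968, 411, 127 and 30.6 CPM in 1F, 8F, 11F and 18F, and Kupffer cell markers to 1118, 581, 549 and 389 CPM. Mouse 18F, with the lowest sums of both marker lists, had the lowest Socs3 and Pim1 of the VSG group but the second highest Cebpb and Cebpd.

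**Figure D2:**
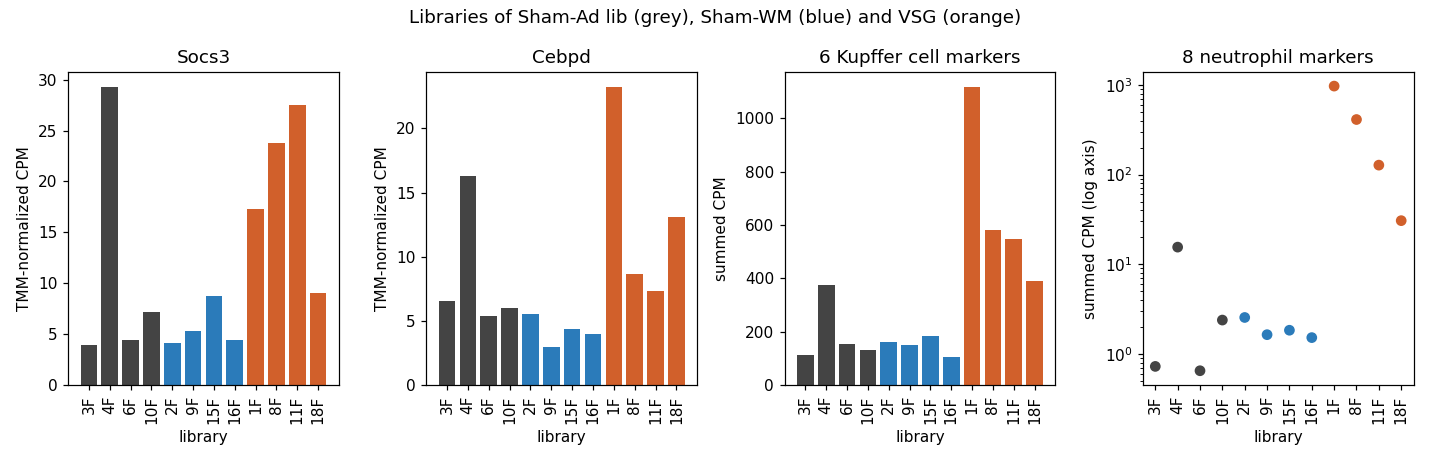
Socs3 and Cebpd in TMM-normalised CPM, and the summed CPM of 6 Kupffer cell markers and of 8 neutrophil markers (log axis), in each library, with Sham-Ad lib in grey, Sham-WM in blue and VSG in orange. Sham-Ad lib mouse 4F is the highest of its group in all 4 panels, and within VSG the order of mice differs between Socs3 (highest in 11F, 27.5 CPM) and Cebpd (highest in 1F, 23.2 CPM).

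Few members were called against Sham-Ad lib. In VSG against Sham-Ad lib, 0 of the 9 tested members were called by edgeR, beside 0.751% of all tested genes. At an unadjusted p under 0.05 it was 1 (Il6st, lower), beside 24.1% of all tested genes in either direction and 9.81% lower, and DESeq2 called 0. In Sham-WM against Sham-Ad lib, 1 member fell (Il6ra), beside 6.99% of all tested genes called in either direction and 3.45% called lower. Its groups did not overlap, as was so, with Sham-WM lower, for 8.40% of all tested genes. All 9 fitted log2 fold changes were below 0, with a median of -0.59 against 0.00 for all tested genes. Without mouse 4F, those of Osmr (0.04), Stat3 (0.11) and Socs3 (0.13) were above 0.

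In VSG against Sham-WM, 3 of 9 members were called, all of them higher (Il6ra, Socs3 and Cebpd), beside 26.9% of all tested genes called in either direction and 15.0% called higher. The median log2 fold change of the members was 0.79, against 0.03 for all tested genes. A count of 3 among 9 genes does not set the members apart from that background. Without Sham-Ad lib mouse 4F 5 members were called, with Osmr (adjusted p = 0.0451) and Cebpb (0.0370) added. This mouse is in neither group compared, and the log2 fold changes hardly moved (Osmr 0.806 to 0.803, Cebpb 0.786 to 0.784). Leaving it out acts through the estimate of spread that all groups share. It was singled out by its values in these data, and the share of all tested genes called without it is not given. Groups without overlap were seen for 2 members, Socs3 and Cebpd, beside 26.2% of all tested genes in either direction and 14.3% higher. In this comparison all 7 tested neutrophil markers and all 6 Kupffer cell markers were also called higher, as were 3 of 5 markers of monocytes and recruited macrophages and 3 of 5 of B and plasma cells. Of 5 hepatocyte markers, 2 were called lower. The part of these cells in the member results was not tested. Il6ra and Cebpd lost their call with 2 RUVs factors, which remove variation seen among replicates of a group, and the Socs3 log2 fold change went to -0.047 (adjusted p-values 0.0681, 0.204 and 0.982). With 2 RUVr factors, which are taken from the residuals of the fit, all 3 were called. The study's own methods name RUVSeq with 2 factors for batch, without saying which form. When libraries were grouped by a second label field, 0 members were called in any comparison. That field pairs libraries with other titles, in alphabetical order, and so mixes the groups given by animal number.

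**Figure D3:**
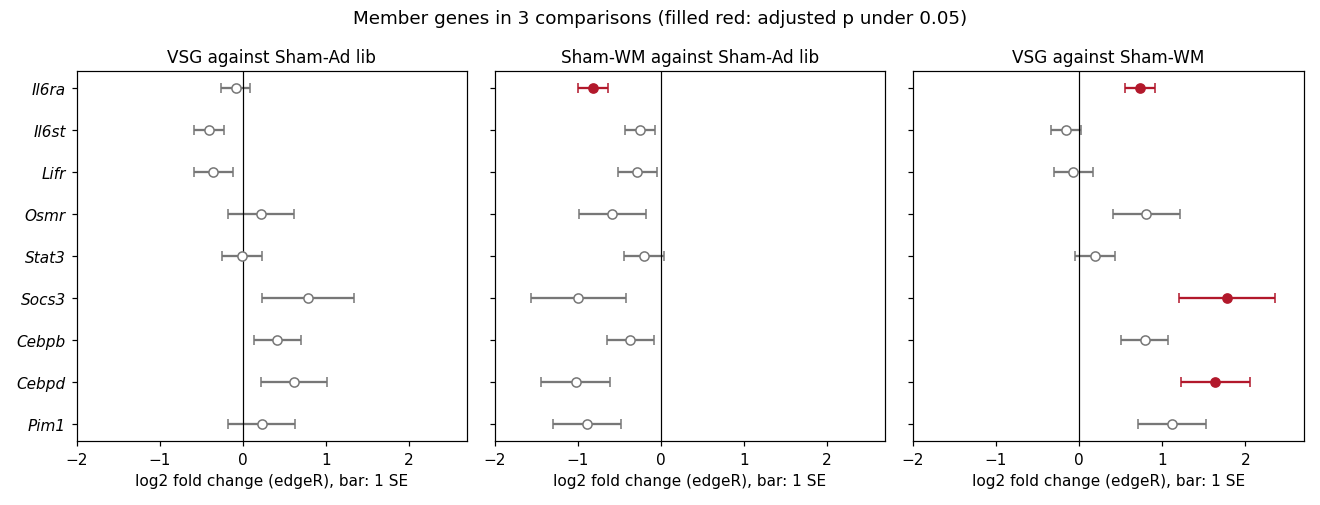
Log2 fold change of each of the 9 tested genes in the 3 comparisons, from edgeR, with bars of 1 SE; filled red points passed an adjusted p of 0.05. Against Sham-Ad lib only Il6ra passes, at -0.82 in Sham-WM, and in VSG against Sham-WM Il6ra (0.73), Socs3 (1.78) and Cebpd (1.64) pass.

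Mouse 4F stood apart from the other 3 Sham-Ad lib mice in most of the members. Against their mean it had 5.65 times the Socs3, 3.18 times the Osmr, 2.73 times the Cebpd, 1.96 times the Stat3, 1.79 times the Cebpb and 1.53 times the Pim1. Lifr was lower in 4F, at 0.531 times, and Il6ra, Il6st and Socs1 lay within the range of the others. So 6 of the 9 tested members were above the other 3 mice, beside 30.9% of all tested genes. These include Osmr, Socs3 and Cebpd, whose values flagged this mouse, so the count is a description only. Of the STAT3 target genes described next, 21 of 34 were above and 0 below, beside 30.9% and 26.1% of all tested genes. This count too is a description only, as the mouse was singled out by genes of the same pathway. For some of the other targets, such as Saa1 (6026 against 2127 CPM), mouse 10F was the highest of the group.

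The wider pathway was described with a list of 40 other signalling genes, of which 32 were tested, and a list of 36 STAT3 target genes, of which 34 were tested. Of 9 ligand genes, 6 had few reads. Il6 had at most 2 counts in any library, Il11 2, Lif 3, Il27 6, Osm 7 and Cntf 8, and these were not tested. Of the 3 tested ligands, Ebi3, a subunit of IL-27 and IL-35, rose in VSG against Sham-WM, from 0.283 ± 0.203 to 1.11 ± 0.494 CPM (log2 fold change 1.94 ± 0.62, adjusted p = 0.0355). Ebi3 also had few reads, 1 to 27 counts in a library. Its groups overlapped, with VSG mouse 18F at 0.455 CPM and Sham-WM mouse 15F at 0.561 CPM. Ctf1 (4.84 against 5.72 CPM, adjusted p = 0.246) and Clcf1 (0.911 against 0.407 CPM, adjusted p = 0.122) did not pass.

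Of the signalling genes, 4 were higher and 4 lower in VSG against Sham-WM, with a median log2 fold change of -0.09, beside 26.9% of all tested genes called in either direction, a share that 8 of 32 does not exceed. The total of 8 became 4 without Sham-WM mouse 9F, 5 without 16F and 3 without VSG mouse 1F. The higher genes were Ebi3, Stat6, a transducer of IL-4 and IL-13, and the phosphatase genes Ptpn6 and Ptprc, which are expressed in blood cells. Stat6 rose from 45.7 ± 3.70 to 72.5 ± 9.89 CPM (adjusted p = 0.00173), and Ptprc, which encodes CD45, from 6.87 ± 1.60 to 25.8 ± 10.4 CPM (adjusted p = 0.00456). Lower were Il11ra1 and Cntfr, receptor chains for IL-11 and ciliary neurotrophic factor, Ptpn11, which encodes SHP2, and the adaptor Shc1. Cntfr fell from 2.25 ± 0.633 to 1.07 ± 0.419 CPM (adjusted p = 0.0275). The kinase Jak1, at 113.5 against 129 CPM (adjusted p = 0.321), and Grb2, at 60.5 against 53.6 CPM (adjusted p = 0.184), did not pass.

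Against Sham-Ad lib, 2 of 32 signalling genes passed in Sham-WM mice, beside 6.99% of all tested genes. Stat5a rose from 11.9 ± 0.630 to 16.1 ± 1.42 CPM (adjusted p = 0.0355), and Stat6 fell from 63.3 ± 2.85 to 45.7 ± 3.70 CPM (adjusted p = 0.0216). Neither group overlapped the other for these genes, but the total of 2 calls became 0 without Sham-Ad lib mouse 3F or 10F or Sham-WM mouse 15F or 16F, and 1 without 4F, 6F, 2F or 9F. Stat5a shares 72 exonic bases with Stat3 on the opposite strand. In VSG mice 0 of the 32 signalling genes passed by edgeR, with 8 at an unadjusted p under 0.05, beside 24.1% of all tested genes. DESeq2 called 3, and the share of all genes that it called is not given here.

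In the STAT3 target list, 26 of 34 genes rose and 0 fell in VSG against Sham-WM, beside 15.0% of all tested genes called higher. The median log2 fold change was 1.61, against 0.03 for all tested genes, and for 23 of the 34 all VSG mice lay above all Sham-WM mice, beside 14.3% of all tested genes. The list was chosen with earlier results of these data known, so these shares are a description and not a test of the list. The 26 calls became 1 with RUVs factors and 0 by the second label field. Of the 22 acute phase genes, 19 rose. Haptoglobin (Hp) measured 19102, 13183, 15656 and 4688 CPM in VSG mice and 3523, 2728, 2252 and 2332 CPM in Sham-WM mice, a ratio of means of 4.86 (adjusted p = 0.00317). As for Socs3, mouse 18F was the lowest of the VSG group and lay above every Sham-WM mouse. Hemopexin (Hpx, 4.26-fold, adjusted p = 0.00719), orosomucoid 1 (Orm1, 6.63-fold, adjusted p = 0.00462) and fibrinogen alpha (Fga, 1.88-fold, adjusted p = 0.0212) also rose. Orm1 has close copies, between which reads could be split.

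Of the 12 tested target genes that act in transcription and survival, 7 rose in VSG against Sham-WM. Mcl1, a survival gene, rose from 118 ± 21.7 to 182 ± 13.5 CPM (adjusted p = 0.0104) and Junb, an immediate early transcription factor, from 7.55 ± 2.86 to 30.3 ± 11.5 CPM (adjusted p = 0.0107). Bcl3 (adjusted p = 0.520) and Bcl2l1 (0.741) did not pass. Many of the acute phase genes respond to IL-1 as well as to IL-6, and some, such as Lcn2, are also expressed in neutrophils.

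In Sham-WM against Sham-Ad lib, 5 target genes fell: Saa1, Saa2, Serpina3n, Il1rn and Junb, beside 3.45% of all tested genes called lower, and the list had a median log2 fold change of -0.63. The count was 2 without Sham-Ad lib mouse 4F or 10F or Sham-WM mouse 15F, 3 without 9F and 1 without 16F. Saa1 and Saa2, serum amyloid genes whose near-identical sequences make the split of reads between them uncertain, spread widely among Sham-Ad lib mice, Saa1 measuring 141, 2127, 798 and 6026 CPM in 3F, 4F, 6F and 10F. The Sham-WM mice lay between 24.2 and 252 CPM, so the groups overlapped. Serpina3n, an acute phase protease inhibitor, fell from 836 ± 367 to 414 ± 40.0 CPM (adjusted p = 0.0373) with no overlap, and Il1rn, the IL-1 receptor antagonist, from 9.82 ± 5.57 to 1.98 ± 0.552 CPM (adjusted p = 0.00922). Mouse 10F had the highest Saa1 of its group and a Socs3 level of 7.15 CPM, whereas 4F had the highest Socs3 and, at 9717 CPM, the highest Hp.

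In VSG against Sham-Ad lib 0 of 34 target genes passed by edgeR, while 19 were higher at an unadjusted p under 0.05 (beside 14.3% of all tested genes) and DESeq2 called 13. The median log2 fold change of the list was 0.93, against 0.03 for all tested genes. The count was 10 without Sham-Ad lib mouse 4F and 13 without VSG mouse 18F. The share of all tested genes called by DESeq2, or without these mice, is not given here. Hp measured 2951, 9717, 3902 and 8020 CPM in Sham-Ad lib mice, where 4F and 10F lay above VSG mouse 18F.

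**Figure D4:**
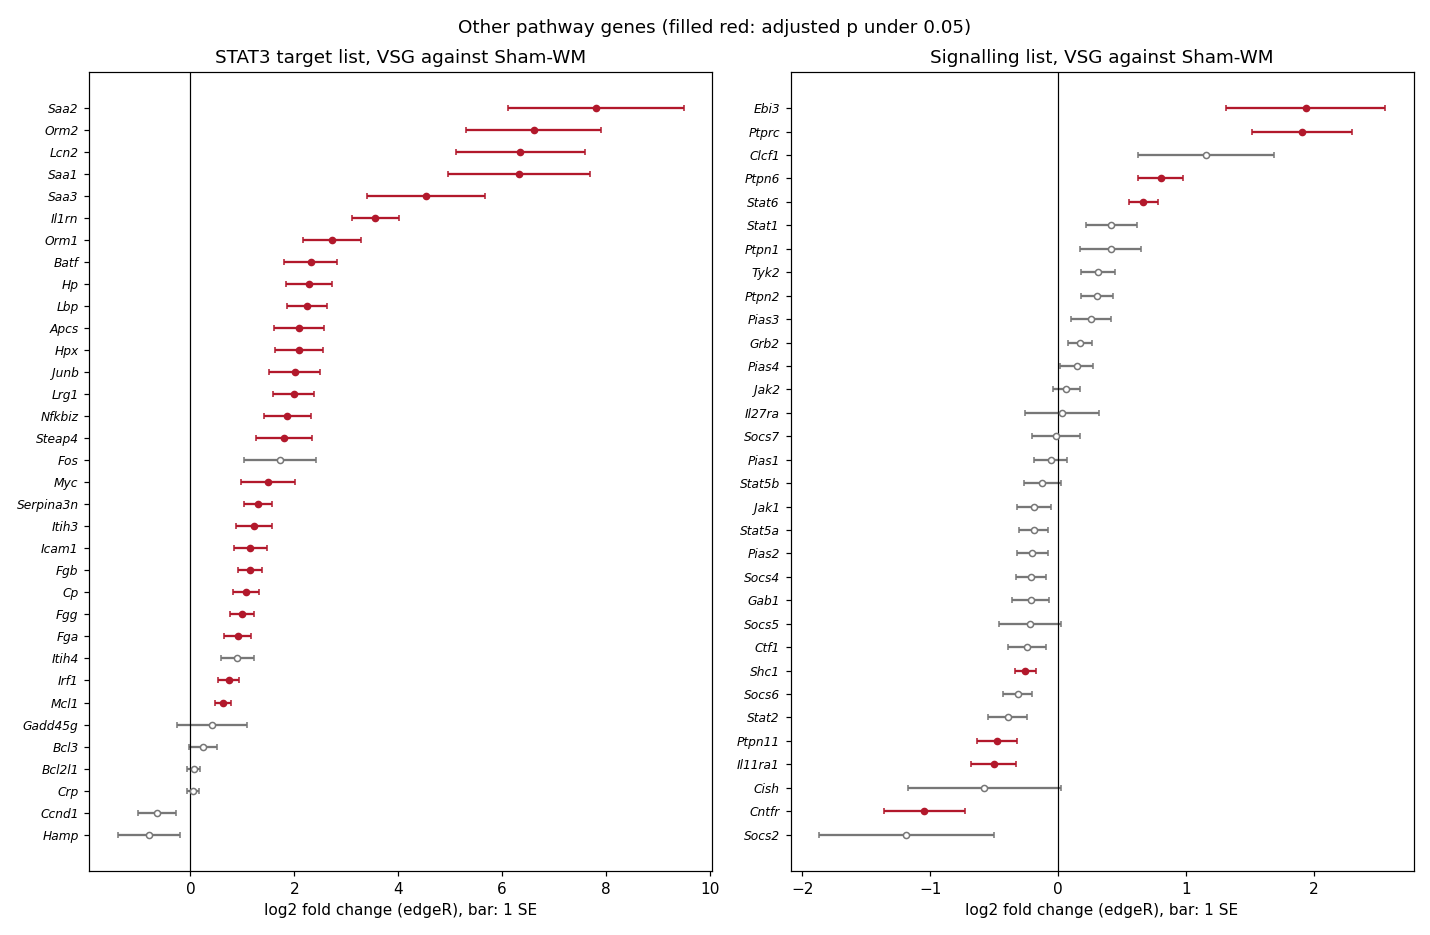
Log2 fold change in VSG against Sham-WM of the 34 tested STAT3 target genes and the 32 tested signalling genes, from edgeR, with bars of 1 SE; filled red points passed an adjusted p of 0.05. Of the targets 26 pass, all to the right of 0, while of the signalling genes 4 pass on each side.

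The genes whose levels followed those of 3 members most closely over the 12 libraries were sought among 10823 genes by Pearson's r of log2 CPM, as a description without a test, since the libraries share groups and cell makeup. For Socs3 these were Cd180 (r = 0.94), Trpm2 (0.93), Fgd2 (0.92), Map3k8 (0.92) and Cyp3a13 (0.91). Cd180 encodes a receptor of B cells and macrophages, and its mean was 4.99 CPM in VSG, 1.91 CPM in Sham-WM and 2.38 CPM in Sham-Ad lib mice. For Stat3 they were Pld1 (0.88), Btg2 (0.87), Pml (0.87), Fosl2 (0.86) and Tgfbi (0.84). For Il6ra they were Tldc1 (0.97), Hdac8 (0.93), Lrrc56 (0.92), Abcg8 (0.92) and Klf13 (0.92). Abcg8, a sterol transporter of hepatocytes, had a mean of 81.2 CPM in Sham-WM, 160 CPM in Sham-Ad lib and 158 CPM in VSG mice, the same order of low and high groups as Il6ra without a clear order of the latter pair.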

How the data were processed

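Poly(A) RNA from the livers of 12 mice was sequenced from directional libraries. The authors deposited whole-number counts of reads per Ensembl gene, without normalisation. The submitters' processing notes name TopHat2 2.1.1, featureCounts and mm10. The strand setting and annotation release of the counting are not given in the sources used here, so overlaps with opposite-strand genes are stated. Libraries were grouped by the animal number shared by title and library name. A second label field pairs titles with other animals' libraries, and grouping by it was an alternative. Down the samples, that field lists the libraries in alphabetical order of their names. Each group formed by it mixes mice of different groups by animal number. Mice are named by the number in the library name. Index numbers in those names run in 1 block for each group, and any batch along them and the treatment cannot be told apart.

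Of 46078 genes, 45229 matched GENCODE M21, and 849 did not. With R 4.3.3 and edgeR 4.0.16 (limma 3.58.1), filterByExpr (minimum count 10, minimum total 15) left 13054 genes. TMM factors lay between 0.879 and 1.04. Quasi-likelihood fits to all 12 libraries gave 3 contrasts, adjusted by Benjamini-Hochberg and called at 0.05. Errors are the SD of 4 mice or the SE of a log2 fold change. Reads carried no molecular identifiers. No replicate pair was a copy (Spearman rho from 0.966 to a highest value of 0.991, for 15F with 16F). P-values measure the spread between mice, 1 library each.

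The members and lists were chosen with earlier results of these data known. Named are all members, all ligands, the 4 tested genes of each sublist with the highest level per kb, genes of called sets of 5 or fewer, and the 5 genes most like Socs3, Stat3 and Il6ra with a mean log2 CPM (prior count 2) of at least 1. Alternatives were DESeq2 1.42.0, its size factors, other count filters, 2-group fits, RUVr and RUVs with 2 factors (written out from their definitions), unadjusted p-values and leaving out each library. The study itself tested with DESeq2 and states that it removed batch variation by RUVSeq with 2 factors. It does not name the form, and the main fit here has no such factors. The fit was tested on simulated data. Of 6 hepatocyte markers, 5 were matched. Protein motifs were not analysed here.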

Additional observations from a re-analysis of the deposited data

Results flagged for a closer look

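In 3 cases a single library lay far from the other 3 of its group, by Dixon's ratio of the gap to the range with a limit for 4 values. All 3 were Sham-Ad lib mouse 4F: Osmr at 9.18 CPM (gap over range 0.901), Socs3 at 29.3 CPM (0.874) and Cebpd at 16.3 CPM (0.897). The next highest mice were at 3.20, 7.15 and 6.53 CPM. In all, 30 groups of 4 were examined, and chance flags about 1 in 20. The same mouse also had the highest summed neutrophil markers (15.5 CPM) and Kupffer cell markers (376 CPM) of its group, and the part of these in the member values was not tested.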

How the results depend on the processing

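No paired analysis was possible because the groups share no animal numbers. The member log2 fold changes kept their direction and their side of the threshold with DESeq2's size factors, at least 10 counts in every library, and fits of only the 2 groups compared. DESeq2, the fit without a filter and unadjusted p-values each called 5 members in VSG against Sham-WM, RUVr called 6, and RUVs and grouping by the second label field called 0. In VSG against Sham-Ad lib RUVr and unadjusted p-values called 1. In Sham-WM against Sham-Ad lib RUVr called 2, unadjusted p-values 3 and the second label field 0. For signalling genes, VSG against Sham-Ad lib gave 3 with DESeq2, 2 without a filter, 9 with RUVr and 8 with unadjusted p. Sham-WM against Sham-Ad lib gave 1 without a filter, 6 with RUVr, 5 with RUVs, 6 with unadjusted p and 0 by the second field. VSG against Sham-WM gave 5 with at least 10 counts, 4 in the 2-group fit, 16 with RUVr, 2 with RUVs, 13 with unadjusted p and 0 by the second field. For STAT3 targets, VSG against Sham-Ad lib gave 13 with DESeq2, 9 without a filter and 19 with RUVr or unadjusted p. Sham-WM against Sham-Ad lib gave 12 with DESeq2, 12 with RUVr, 10 with RUVs, 15 with unadjusted p and 0 by the second field. VSG against Sham-WM gave 1 with RUVs and 0 by the second field. For most of these fits, and for those without 1 library, the share of all tested genes called is not given. These counts alone do not set a list apart.

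Leaving out 1 library gave 0 to 1, 0 to 1 and 2 to 5 members called in the comparisons of VSG with Sham-Ad lib, of Sham-WM with Sham-Ad lib and of VSG with Sham-WM. It gave 0 to 4, 0 to 2 and 3 to 8 signalling genes, and 0 to 13, 1 to 6 and 21 to 28 targets. The highest member counts in the first and last came without Sham-Ad lib 4F.

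Signs turned as follows, in log2 fold change. By the second label field, VSG against Sham-Ad lib gave Il6ra 0.51, Il6st 0.059, Lifr 0.029, Socs3 -0.47 and Pim1 -0.45. Sham-WM against Sham-Ad lib gave Il6ra 0.43, Il6st 0.33, Osmr 0.93, Stat3 0.37, Socs3 0.40, Cebpb 0.23, Cebpd 0.63 and Pim1 0.45. VSG against Sham-WM gave Osmr -0.43, Lifr 0.23, Stat3 -0.42, Socs3 -0.87 and Pim1 -0.90. With RUVs, VSG against Sham-Ad lib gave Il6ra 0.013, Osmr -0.51, Lifr 0.054, Socs3 -0.27 and Pim1 -0.62, and VSG against Sham-WM gave Il6st 0.094, Osmr -0.25, Lifr 0.40, Stat3 -0.20, Socs3 -0.047 and Pim1 -0.036. With RUVr, Stat3 in VSG against Sham-Ad lib was 0.019. Leaving out 1 library turned the sign of 11 of 324 values, none of them of the 4 called results. In VSG against Sham-Ad lib the ranges were -0.25 to 0.021 for Il6ra (turned without VSG 11F), -0.00087 to 0.85 for Osmr and -0.054 to 0.46 for Pim1 (both without VSG 8F), and -0.20 to 0.30 for Stat3 (without Sham-Ad lib 4F or VSG 11F or 18F). In Sham-WM against Sham-Ad lib they were -0.78 to 0.044 for Osmr, -0.32 to 0.11 for Stat3 and -1.29 to 0.13 for Socs3 (all without 4F). In VSG against Sham-WM the range for Lifr was -0.22 to 0.034 (without Sham-WM 9F or VSG 1F). The cause was not tested.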
